A study of Mus musculus with 6 samples.

Results

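The genes described here are 10 immediate early genes and close relatives: the zinc finger transcription factors Egr1, Egr2 and Egr3, the serum response factor Srf, the mRNA-binding proteins Zfp36 and Zfp36l1, the nuclear receptor Nr4a1, and Ier2, Ier3 and Btg2. All probe sets whose annotated symbol is exactly 1 of these names were taken, which gave 10 of the 18193 genes and 15 of the 45101 probe sets in the values table, with 2 each for Egr2, Egr3, Srf, Zfp36l1 and Btg2. The arrays came from C2C12, an immortalised mouse myoblast line, held for 48 hours without attachment in methylcellulose medium with 20% fetal calf serum, a treatment that brings these cells to G0. A stable pool carrying an shRNA against PRDM2 (3 arrays) was compared with a stable pool carrying a control shRNA against GFP (3 arrays). Each group's arrays are labelled as biological replicates of its pool. No source used here ties them to separate transfections, so p-values measure the spread between samples of 1 pool per group. The comparison asks which transcripts differ in arrested myoblasts when PRDM2, a member of the PR domain family of chromatin regulators, is reduced.

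Immediate early genes are switched on by growth factors, serum or mechanical stress from factors already present in the cell, without new protein synthesis. Signalling through ERK and through actin dynamics activates SRF and its partners at CArG boxes, and SRF in turn drives EGR genes, Nr4a1, Srf itself and many cytoskeletal genes. EGR proteins bind GC-rich sites and switch on their own corepressors. ZFP36 (tristetraprolin) and ZFP36L1 bind AU-rich mRNAs and recruit the CCR4-NOT deadenylase, as does BTG2, so the family also holds factors that shut such responses down.

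RefSeq promoter windows (GRCm38.p6, from 250 bases before to 50 bases after an annotated start) were at hand for 7 of the 10 genes, and were searched on both strands for the CArG box, for the EGR sites GCGGGGGCG and GCGTGGGCG, and for the cAMP response element TGACGTCA. Egr1, Egr3 and Ier2 had no window at hand and were not searched. A CArG box was found for Egr2, Srf and Zfp36, against 1.81% of 27025 genes with a window. An EGR site was found for Srf, Zfp36 and Nr4a1, against 3.93% of genes, and the cAMP element for Btg2 alone, against 2.03%. The stretches around the CArG boxes and EGR sites are shown because they place the sequence bound by one member, Srf, and that bound by others, the EGR factors, at the promoters of members described below. Capitals mark the match, and each is read 5′ to 3′ on the gene's own strand.
Egr2 CArG box (chr10:67537787-67537816, plus strand, 72 bases before a start): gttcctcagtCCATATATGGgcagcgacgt
Srf distal CArG box (chr17:46556225-46556254, minus strand, 82 bases before): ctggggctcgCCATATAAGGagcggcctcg
Srf proximal CArG box (chr17:46556205-46556234, minus strand, 62 bases before): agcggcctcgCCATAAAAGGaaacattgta
Zfp36 CArG box (chr7:28379267-28379296, minus strand, 58 bases before): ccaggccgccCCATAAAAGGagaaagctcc
Srf EGR site (chr17:46556244-46556273, minus strand, 101 bases before): gaccaatgggGCGGGGGCGctggggctcgc
Zfp36 EGR site (chr7:28379314-28379343, minus strand, 105 bases before): gagctacgccGCGGGGGCGcgtcccggaag
Nr4a1 EGR site (chr15:101266776-101266805, plus strand, 60 bases before; match on the opposite strand): gcgtcagtggCGCCCCCGCccctctccatg
The proximal Srf box and the Zfp36 box have the same 10 letters. Egr2 has 5 annotated starts, and a further CArG match lies 72 bases before another of them. A match is a stretch of letters and was not tested for binding.

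Srf and Zfp36 each hold both kinds of match. At Srf the EGR site lies 101 bases and the distal CArG box 82 bases before the start, against 105 and 58 at Zfp36. Srf, with the closer pair, did not pass the test described below. Whether the matches bear on transcript levels was not tested. As an example, the 250 bases before the Zfp36 start (chr7:28379229-28379478, minus strand) are given whole, with the EGR site and the CArG box in capitals.
Zfp36 promoter: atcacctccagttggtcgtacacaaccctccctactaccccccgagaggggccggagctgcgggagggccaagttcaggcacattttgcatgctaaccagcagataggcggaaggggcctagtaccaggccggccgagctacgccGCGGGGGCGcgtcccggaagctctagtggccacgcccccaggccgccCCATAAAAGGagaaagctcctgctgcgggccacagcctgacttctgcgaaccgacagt

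Several features of the arrays bear on every value. Median intensity was 10.6 to 12.1, and 55.1% to 58.2% of probe sets on an array read below 16. Control array 3 had a Gapdh 5' to 3' ratio of 0.0992, against 0.704 to 1.14 on the others. The actin 5' to 3' ratio was 0.114 on that array and varied from 0.299 to 0.723 on the others. Array 3 of each group had a low Dap spike signal (43.1 in the control and 42.3 in the knockdown, against 160 to 350). Differences are therefore also given over arrays 1 and 2 of each group and between the arrays numbered 3 alone. At the targeted gene, Prdm2, the probe set of highest mean read 66.9% of the control mean, with a log2 difference of -0.51 that missed the threshold (limma adjusted p = 0.4). A further Prdm2 probe set read 51.3% of the control and the remaining one 120%, neither past the threshold, so the knockdown arrays are named here by their label. Of the myoblast markers Myod1, Myf5, Des, Cdh15 and Ncam1, Myf5 alone fell, by 1.29. Markers of other cell types were not uniformly dim. Of the 5 macrophage genes Ptprc read 1.09 and 1.82 in mean (control and knockdown) but Cd14 read 342 and 219 and Csf1r 113 and 61.9, of the 5 endothelial genes Pecam1 read 2.61 and 2.74 but Emcn 56.1 and 43.7, and of the 3 adipocyte genes Adipoq read 0.842 and 1.51 but Fabp4 13.4 and 16.6.

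Knockdown cells had more transcript of Egr2 and Zfp36 than control cells, 2.90 to 2.95-fold on the scale used here, and no member fell. Egr2 rose at both of its probe sets and Zfp36 at its only one. These 3 of 15 member probe sets passed limma's test at an adjusted p under 0.05, where 1.79% of the 34945 probe sets with 1 gene symbol were higher and 1.29% lower past the same threshold. By gene, using for each the probe set of highest mean, 2 of 10 passed, where 2.35% of 18193 genes were higher. Log2 values are of quantile-normalized intensity plus 16, so folds of dim probe sets are understated. No member was lower at an unadjusted limma p under 0.05 either. At that level 1963 of 34945 probe sets were lower, so the absence of a fall among 15 carries little information. At the same level 9 member probe sets of 8 genes were higher, where 7.22% of all probe sets and 8.64% of genes were. The log2 difference was at least 1 at 6 of the 15, against 1.41% of all probe sets. Without array 3 of each group 2 of the 15 passed (Egr2 1427683_at and Zfp36), against 0.441%. The median log2 difference was 0.79 over the 10 genes and -0.004 over all genes.

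**Figure D1:**
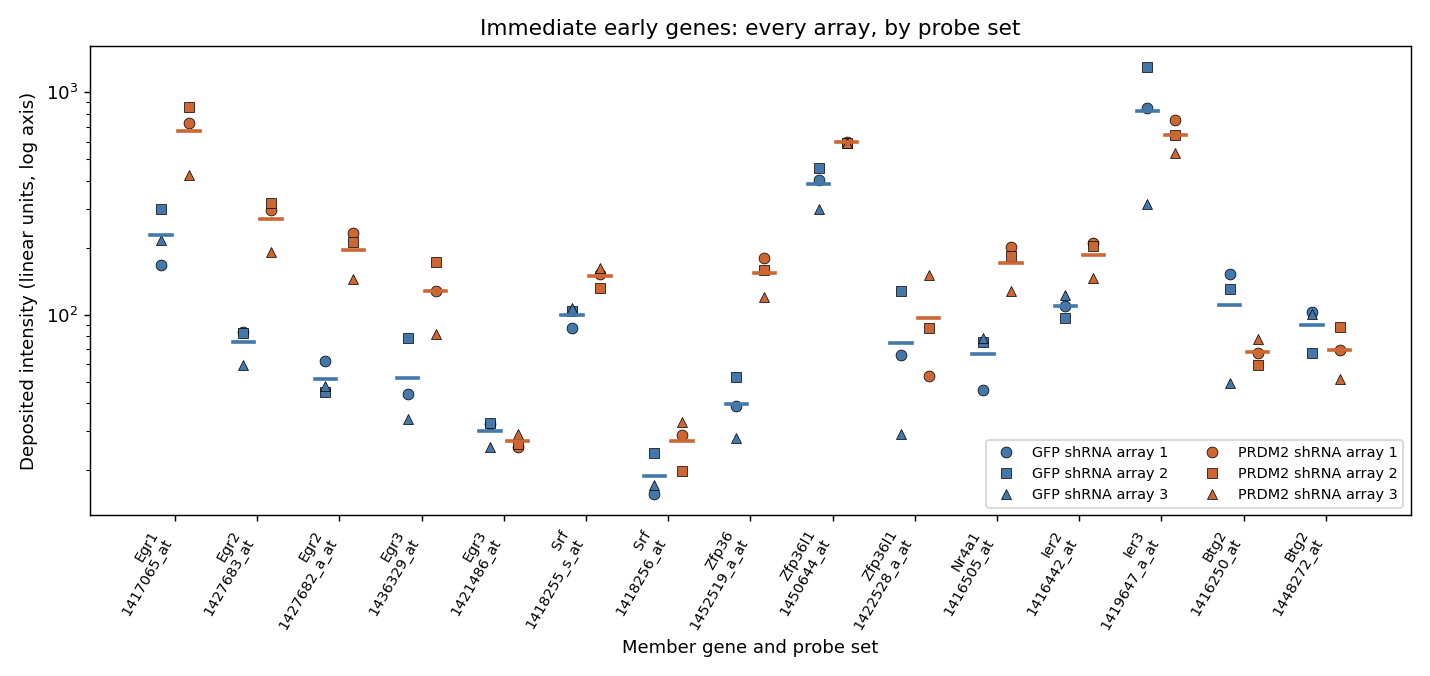
Deposited intensity of each member probe set (log axis) on every array, with GFP shRNA arrays in blue, PRDM2 shRNA arrays in orange, a marker shape per array number and a bar at each group mean; heights of different probe sets are not comparable. The groups stand apart at Egr1, both Egr2 probe sets, Egr3 1436329_at, Srf 1418255_s_at, Zfp36, Zfp36l1 1450644_at, Nr4a1 and Ier2. They overlap at the other probe sets, among them those of Ier3 and Btg2.

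Egr2 (Krox20), known for its part in hindbrain patterning, myelination and lymphocyte restraint, had the same response at both probe sets. At 1427683_at the control arrays read 83.7, 82.9 and 59.3 and the knockdown arrays 295, 319 and 191. All knockdown values lay above all control values, with array 3 the lowest of each group. The mean went from 75.3 ± 13.9 to 268 ± 68.3 (SD, n = 3 each), a log2 difference of 1.54 (SE 0.191, limma adjusted p = 0.0121). At 1427682_a_at the readings were 62.0, 45.0 and 47.8 in the control and 232, 212 and 144 in the knockdown, again without overlap. The difference there was 1.56 (SE 0.202, limma adjusted p = 0.014). It was 1.69 and 1.80 at these probe sets over arrays 1 and 2, and 1.25 and 1.11 between the arrays numbered 3. The call at 1427683_at was lost when control array 1 (limma adjusted p = 0.0534) or knockdown array 1 (0.0701) was left out; the 21 alternatives ran from 0.00285 to 0.118. That at 1427682_a_at was lost when knockdown array 1 (limma adjusted p = 0.0701), knockdown array 2 (0.066) or array 3 of each group (0.0633) was left out, in a range of 0.00395 to 0.127 over 19 alternatives.

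Egr1 (Krox24, Zif268), the factor most often used as a readout of ERK signalling, differed by nearly as much with a wider spread. The control arrays read 168, 299 and 216, and the knockdown arrays 726, 862 and 423. The groups did not overlap, but the arrays numbered 3 differed by 0.69 and arrays 1 and 2 by 1.76. The mean went from 228 ± 66.1 to 670 ± 225 (SD, n = 3 each; log2 difference 1.39, 95% interval 0.66 to 2.12), and the limma adjusted p = 0.0784 missed the threshold. It passed in 5 of 21 alternatives, among them the fit with 1 probe set per gene (limma adjusted p = 0.0481) and array weights (0.0117), within 0.0117 to 0.301.

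Egr3, which acts beside Egr2 in lymphocytes and is needed for muscle spindles, gave unlike readings at its probe sets. At 1436329_at the control arrays read 44.0, 78.1 and 34.0 and the knockdown arrays 128, 172 and 81.5, with the lowest knockdown value just above the highest control value. The log2 difference was 1.00 (SE 0.292) and the limma adjusted p = 0.183. At 1421486_at all arrays read between 25.3 and 32.5, and the difference was -0.12 with a 95% interval of -0.33 to 0.09. That interval excludes the 1.00 seen at the other probe set. The Egr3 transcripts that each probe set reads were not analysed here.

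Srf itself differed little. Its probe set 1418255_s_at read 87.1, 103 and 107 in the control and 152, 131 and 163 in the knockdown. The values did not overlap, yet the difference of 0.42 (95% interval 0.07 to 0.77) had a limma adjusted p of 0.268. The _s_at ending marks probes that can match transcripts of more than 1 gene. The dimmer 1418256_at read 15.6 to 23.8 in the control and 19.7 to 32.8 in the knockdown, with overlap (difference 0.30, limma adjusted p = 0.488).

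Zfp36 (tristetraprolin), which brings AU-rich mRNAs to decay, had the smallest adjusted p of all 15 member probe sets. The control arrays read 38.8, 52.6 and 27.8 and the knockdown arrays 180, 159 and 121. Every knockdown value lay above every control value. The mean went from 39.7 ± 12.5 to 153 ± 30.1 (SD, n = 3 each), a log2 difference of 1.55 (SE 0.17, limma adjusted p = 0.00776). The difference was 1.59 over arrays 1 and 2 and 1.48 between the arrays numbered 3, and Zfp36 passed in 20 of 21 alternatives. The exception was the unmoderated test, with an adjusted p of 0.094 (lowest over the alternatives 0.00136).

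Zfp36l1, its paralog, differed less and unevenly. At 1450644_at the control arrays read 402, 458 and 297, and the knockdown arrays 598, 592 and 594, a spread of 3.11 (SD) in the knockdown against 81.4 in the control. The groups did not overlap, and the difference of 0.55 (SE 0.106) had a limma adjusted p of 0.0517. It passed in 4 of 21 alternatives, within 0.0111 to 0.542. At 1422528_a_at the arrays read 65.9, 128 and 29.0 in the control and 53.0, 86.9 and 150 in the knockdown, with wide overlap. The difference of 0.32 there turned to -0.38 over arrays 1 and 2, and was 1.72 between the arrays numbered 3.

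Nr4a1 (Nur77), an orphan nuclear receptor induced by many stimuli, read 45.7, 75.0 and 78.9 in the control and 202, 183 and 128 in the knockdown. The groups did not overlap. The difference was 1.09 (SE 0.241, limma adjusted p = 0.0815), with 1.46 over arrays 1 and 2 and 0.38 between the arrays numbered 3. It passed in 3 of 21 alternatives, within 0.0113 to 0.298.

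Ier2, a short-lived nuclear protein, read 109, 96.7 and 122 in the control and 210, 203 and 146 in the knockdown. After quantile normalization the groups overlapped, since the arrays numbered 3 differed by -0.03 against 0.90 over arrays 1 and 2. The difference over all arrays was 0.58 (limma adjusted p = 0.252).

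Ier3 and Btg2 were the genes without a higher mean in the knockdown. Ier3, a regulator of survival, read 850, 1296 and 314 in the control and 751, 645 and 535 in the knockdown, which lay inside the control range. Its difference was -0.21 (95% interval -1.20 to 0.77, limma adjusted p = 0.919) and became 0.17 without control array 2. Btg2, an antiproliferative partner of CCR4-NOT, read 153, 131 and 49.1 in the control and 67.0, 59.3 and 78.0 in the knockdown at 1416250_at. Arrays 1 and 2 of the control stood above all others and control array 3 below all others. The difference was -0.57 (limma adjusted p = 0.559), or -0.93 with a limma adjusted p of 0.0439 without control array 3, the array of low 5' to 3' ratio (highest over the alternatives 0.811). At 1448272_at Btg2 read 102, 67.0 and 100.2 in the control and 69.0, 87.7 and 51.2 in the knockdown, which overlapped (difference -0.39, limma adjusted p = 0.641). The difference there was -0.08 over arrays 1 and 2 and -1.01 between the arrays numbered 3.

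**Figure D2:**
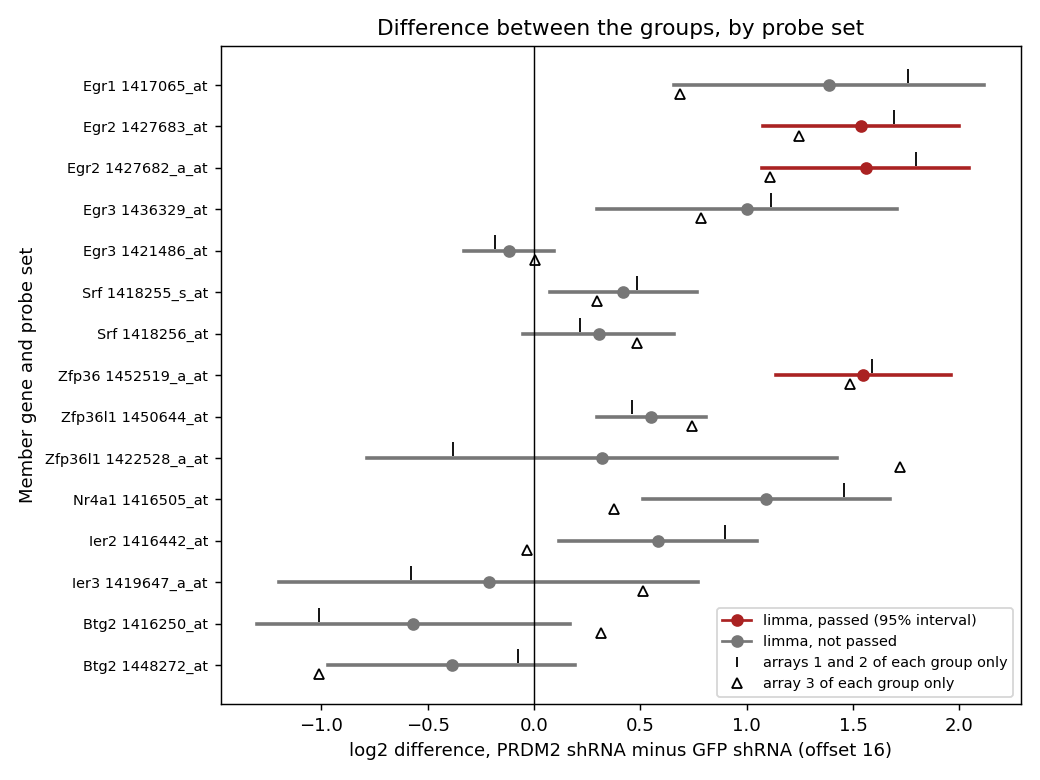
Log2 difference of each member probe set, PRDM2 shRNA minus GFP shRNA, with its 95% interval from limma; red marks an adjusted p under 0.05, ticks the difference over arrays 1 and 2 and triangles that between the arrays numbered 3. Both Egr2 probe sets and Zfp36 passed, and at Ier3 and at Btg2 1416250_at the arrays numbered 3 (0.51 and 0.32) lay on the other side of 0 from arrays 1 and 2 (-0.58 and -1.01).

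Across the members, all 3 knockdown values exceeded all 3 control values at 8 of 15 probe sets after normalization, where 9.84% of all probe sets did. The 8 were those of Egr1, Zfp36 and Nr4a1, both of Egr2, and 1 each of Egr3, Srf and Zfp36l1. None of the 15 had all knockdown values below the control, where 8.18% of all probe sets did. An exact two-sided permutation test of 3 arrays against 3 cannot give less than 0.1. Groups without overlap always give that value, so the 0.1 found for each of those 8 adds nothing to the count. Knockdown array 3 was the lowest knockdown array at 9 of 15 probe sets, including all 3 that rose, against 35.2% of all probe sets. Control array 3 was the lowest control array at 8 of 15, against 34.3%. Over the 6 arrays and 9086 other genes above the median level, the patterns most like that of Egr2 were those of Mamdc2, Tusc1 and the sarcomere gene Neb (Pearson r of 0.998, 0.996 and 0.995). Those most like Zfp36 were Gm5817, the phosphodiesterase gene Pde4d and B230217C12Rik (r of 0.998, 0.995 and 0.993). With 2 groups of 3 arrays such an r mostly reflects the difference between the groups.

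The cells that carried more Egr2 and Zfp36 also differed in state. For comparison, 2.35% of all genes rose and 1.79% fell past the threshold. At an unadjusted limma p under 0.05, 8.64% of all genes were higher, and 1963 of 34945 probe sets were lower. Of 7 differentiated muscle markers 6 rose and 0 fell, with a median log2 difference of 4.01. Their summed intensity was 195 to 317 on control arrays and 5280 to 6817 on knockdown arrays. The remaining marker, Ckm, differed by -0.58 without passing (limma adjusted p = 0.597). All 5 measured markers of dividing cells fell, and their summed intensity went from 570 to 860 down to 61.8 to 97.6. Of 8 heat and stress genes 0 passed by limma, and 2 were higher and 1 lower at an unadjusted p under 0.05. No fibroblast or macrophage marker passed by limma (2 fibroblast genes were higher and 2 macrophage genes lower at an unadjusted p under 0.05), with summed intensities of 666 to 906 and 1110 to 1458 (control and knockdown) for the 4 fibroblast genes and 464 to 548 and 281 to 350 for the 5 macrophage genes. The part of cell state in the rise of Egr2 and Zfp36 was not tested.

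The wider immediate early programme did not move in 1 direction. Past the threshold, 2.35% of all genes rose and 1.79% fell. Of 47 other immediate early genes measured, 3 rose, 4 fell and 40 did not pass, with a median of -0.01. The genes that rose were F3, the coagulation initiator tissue factor (1.84), Dusp2, a nuclear ERK phosphatase (1.35), and Klf2, a Krüppel-like factor (1.10). Those that fell were the stress factor Atf3 (by 2.12), the AP-1 subunit Jund (by 1.45), the phosphatase gene Dusp1 (by 0.98) and Klf6 (by 0.87). Dusp1, Klf2 and Klf6 are named here after their values were seen. Of 21 alternatives each, Dusp1 passed in 8, Klf6 and Dusp2 in 14, Klf2 and F3 in 15, Atf3 in 16 and Jund in 19. Dusp1 was lost with each single array left out except control array 2, and also with median centring (limma adjusted p = 0.0675) and without normalization (0.0927), in a range of 0.0196 to 0.238. Klf6 was lost without normalization (limma adjusted p = 0.0602), with the mean of a gene's probe sets (0.222) and without knockdown array 1 (0.0601), in a range of 0.00178 to 0.222. Fos, the best known member of the class, read 205 ± 48.8 and 339 ± 185 (SD, n = 3 each) and did not pass (limma adjusted p = 0.776), nor did Junb (difference 0.79, limma adjusted p = 0.278). Over arrays 1 and 2 Fos differed by 0.94 and Junb by 0.35, and between the arrays numbered 3 by -0.50 and 1.67. The counts of rises and falls in this list changed when arrays were left out. Without control array 1 or 3 there was 1 rise, and without knockdown array 1 or 2 there were 0. Leaving out control array 2 gave 7 falls, knockdown array 1 gave 1 and knockdown array 3 gave 2. Without array 3 of each group none passed in either direction by limma. At an unadjusted limma p under 0.05 with all arrays, 7 of the 47 genes were higher and 10 lower. At that level 8.64% of all genes were higher, and 1963 of 34945 probe sets were lower.

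**Figure D3:**
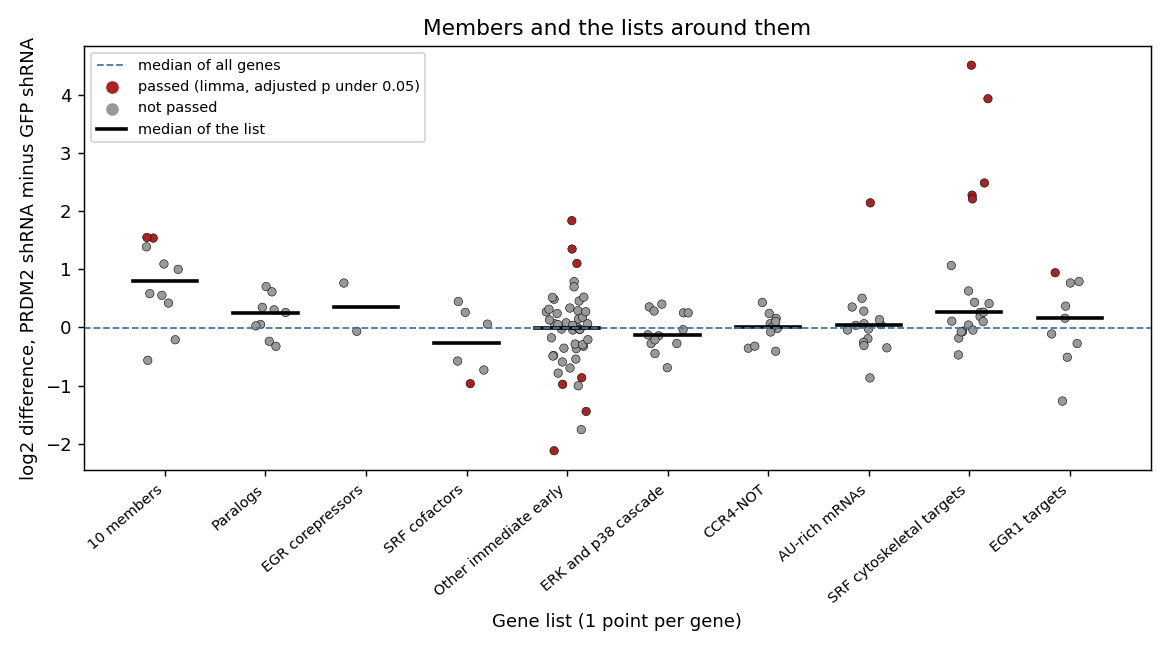
Log2 difference of each gene (1 point, its probe set of highest mean) in the 10 members and the 9 lists around them, with red for an adjusted p under 0.05, a black bar at the list median and a dashed line at the median of all genes. The members' median of 0.79 was above that of each of these lists, the other immediate early genes lay on both sides of 0, and the SRF cytoskeletal targets held the points above 3.

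Among partners upstream, the SRF cofactor Mrtfb, which carries actin signals to SRF, fell by 0.97, from 435 ± 101 to 225 ± 24.0 (SD, n = 3 each; limma adjusted p = 0.0188). The Mrtfb call did not survive leaving out control array 1 (limma adjusted p = 0.0695), knockdown array 1 (0.092) or knockdown array 3 (0.0777). It was also lost without normalization (limma adjusted p = 0.0655), with an offset of 1 (0.0952) and without array 3 of each group (0.141). Ordinary statistics gave an adjusted p of 0.126. The call held in 14 of 21 alternatives, in a range of 0.005 to 0.141. The other 5 cofactors measured did not pass, with Mrtfa at -0.73, Elk3 at -0.58 and Elk4 at 0.45. At an unadjusted limma p under 0.05, 3 of the 6 cofactors were lower and 1 higher. Of 13 measured genes of the ERK and p38 cascades 0 passed, with 1 higher and 1 lower at an unadjusted limma p under 0.05. Among all genes, 2.35% rose and 1.79% fell past the threshold, and 8.64% were higher at the unadjusted level, so lists this small can be expected to hold few calls. Map2k1, which encodes MEK1, differed by 0.28. The Map2k1 difference was -0.0003 over arrays 1 and 2 and 0.85 between the arrays numbered 3.

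Downstream, 5 of 21 SRF cytoskeletal targets rose and 0 fell, where 2.35% of all genes rose and 1.79% fell. At an unadjusted limma p under 0.05 the counts were 6 and 0, where 8.64% of all genes were higher, and the median difference was 0.26. The 5 that rose included the sarcomeric actins Acta1 (4.51) and Actc1 (3.94) and the light chain Myl9 (2.49). The others were the actin-binding Tagln (2.28) and Fhl1 (2.21), the last of these named after its value was seen. Acta1 and Actc1 are also products of differentiated muscle, and Acta1 is among the differentiated muscle markers above. The ubiquitous targets Actb, Actg1 and Vcl differed by -0.06, 0.04 and 0.19 without passing. Leaving out array 3 of each group, 2 of the 21 passed.

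Of 9 measured EGR1 target genes, Cdkn1a, the inhibitor p21, rose by 0.94 (limma adjusted p = 0.0144) and 8 did not pass. At an unadjusted limma p under 0.05, 2 of the 9 were higher and 2 lower. Among all genes, 2.35% rose and 1.79% fell past the threshold, and 8.64% were higher at the unadjusted level. Plaur, the urokinase receptor gene, had a larger difference of the opposite sign, -1.27, with all knockdown values below all control values and a limma adjusted p of 0.0959. The count of EGR1 targets that fell was 0 here and 1 in 6 alternatives, among them the one without control array 3. Leaving out control array 1 (limma adjusted p = 0.0723), knockdown array 1 (0.0784) or array 3 of each group (0.12) ended the Cdkn1a call, in a range of 0.00307 to 0.12. Nab2, a corepressor that EGR factors induce, read 155, 258 and 107 in the control and 314 ± 86.3 in the knockdown, and did not pass (difference 0.76, limma adjusted p = 0.319). Nab2 differed by 0.52 over arrays 1 and 2 and by 1.27 between the arrays numbered 3. Its relative Nab1 differed by -0.07.

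On the side of mRNA decay, none of 11 CCR4-NOT genes passed by limma (0 higher and 2 lower at an unadjusted p under 0.05). Among all genes, 2.35% rose and 1.79% fell past the threshold, and 8.64% were higher at the unadjusted level. Cnot7, a deadenylase subunit, differed by 0.004 and Cnot6 by 0.16. Of 15 genes with AU-rich mRNAs, the chemokine gene Cxcl1 rose by 2.14, from 165 ± 94.4 to 767 ± 133 (SD, n = 3 each, limma adjusted p = 0.0279). The other 14 did not pass, and the list median was 0.04. At an unadjusted limma p under 0.05, 3 of the 15 were higher and 1 lower. Lif differed by -0.87, from 27.1 to 8.01 in mean, with all knockdown values below all control values (limma adjusted p = 0.0711). With array weights or the intensity filter, 1 gene of this list was lower past the threshold. Leaving out control array 3 (limma adjusted p = 0.0917) or knockdown array 1 (0.129), 2 (0.095) or 3 (0.116) ended the Cxcl1 call, in a range of 0.00425 to 0.256. Tnf, the classic target of tristetraprolin, was near background at 5.2 ± 1.77 and 4.58 ± 0.565.

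None of the 9 measured paralogs outside the 10 members passed by limma, and 0 reached an unadjusted p under 0.05 in either direction. Among all genes, 2.35% rose and 1.79% fell past the threshold, and 8.64% were higher at the unadjusted level. Zfp36l2 read 301 ± 210 and 465 ± 122 (SD, n = 3 each; difference 0.70, limma adjusted p = 0.643), and Btg1 differed by 0.03 with a 95% interval of -0.22 to 0.28. The Zfp36l2 difference was 0.16 over arrays 1 and 2 and 1.79 between the arrays numbered 3. Nr4a2 differed by 0.35, Nr4a3 by -0.24 and Egr4, at 3.33 ± 0.588 and 4.0 ± 1.46, was near background.

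**Figure D4:**
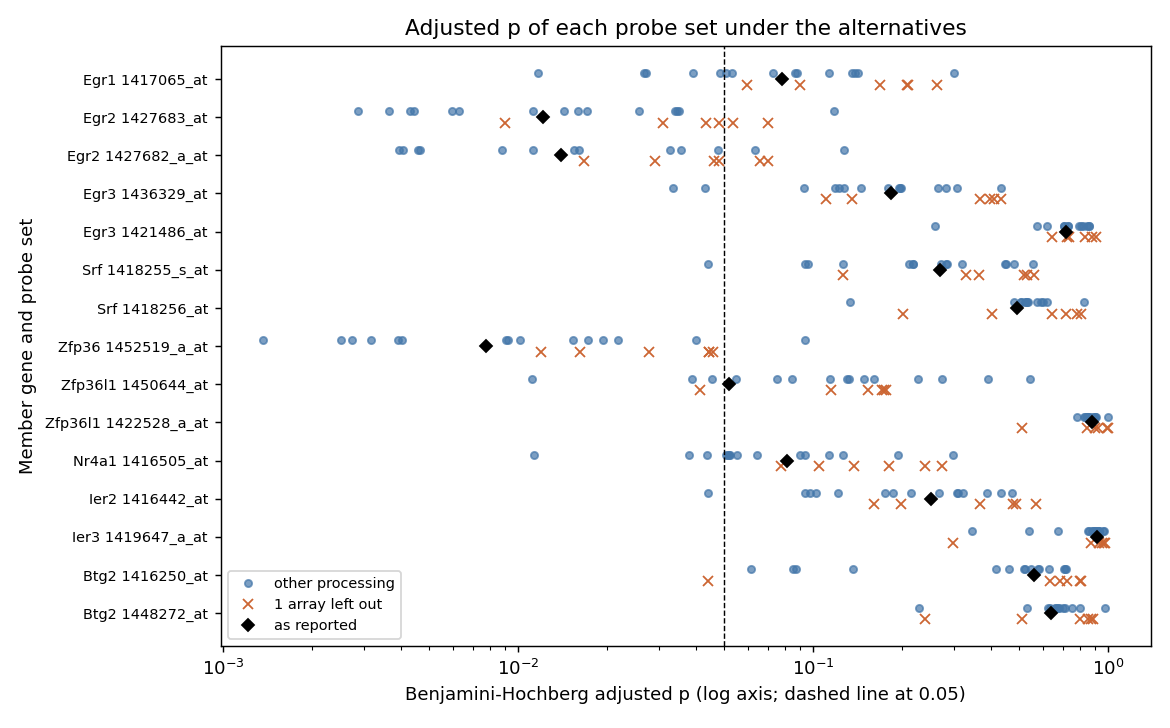
Benjamini-Hochberg adjusted p (log axis) of each member probe set as reported (diamond), with 1 array left out (crosses) and under the other alternatives (circles); the dashed line marks 0.05. Zfp36 stayed under 0.05 with each single array left out, while Egr1, Nr4a1 and Zfp36l1 1450644_at had alternatives on both sides of the line.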

How the data were processed

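The deposited values are linear intensities, 1 per probe set and array. GCOS and PLIER are named, per the submitters' processing notes, without versions; background correction and normalization between arrays are not given in the sources used here. Per the labels' protocols, biotinylated cRNA was made from 8 µg of Trizol-extracted total RNA. The spread of log2 values between quartiles differed by 15% between arrays, so intensities were quantile normalized over all probe sets but the 64 controls, and log2(intensity + 16) was taken. Means ± SD are of deposited intensities.

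Probe sets with exactly 1 symbol in the platform annotation (34945) were fitted with limma 3.58.1 (lmFit, eBayes) in R 4.3.3, adjusted by Benjamini-Hochberg over all of them and called at an adjusted p under 0.05. The fit was tested on simulated data. A gene in a list was represented by its probe set of highest mean. All 15 member probe sets matched the GRCm38.p6 gene table by Entrez identifier. Named are all member probe sets, Prdm2, up to 4 passing genes per list (up to 2 where none passed) and the 3 genes most like each passing member; others were chosen after their values were seen. Members and lists were chosen with earlier results of these data known.

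Replicate numbers were not taken as pairs in the main fit, since no label ties a number to a shared batch. Alternatives covered normalization, offset, a low-value filter, the variance model, the probe set rule, the replicate block, array weights, the Gapdh ratio and left-out arrays. Array number limits precision.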

Additional observations from a re-analysis of the deposited data

How the results depend on the processing

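The 3 member probe sets (2 genes) higher past the threshold became 5 (4) with a mean intensity of at least 16, 9 (8) with array weights and 0 (0) with ordinary statistics, where 7 probe sets (6 genes) were higher at an unadjusted p under 0.05. With 1 probe set per gene 4 genes passed. Leaving out 1 array gave 1 to 4 probe sets (1 to 3 genes) higher and 0 to 1 lower, the last being Btg2 1416250_at without control array 3. With the replicate block 4 probe sets passed, Egr3 1436329_at (limma adjusted p = 0.0428) added to the others. Over all probe sets, 352 were higher with the block. The block ended the calls of Atf3 (limma adjusted p = 0.0551), Klf2 (0.063), Klf6 (0.0523), Dusp1 (0.0811), Cxcl1 (0.0896) and Cdkn1a (0.0513). Deviations of same-numbered arrays correlated at 0.37, 0.06 and -0.04, and array 3 of both groups shared a low Dap spike signal; whether the numbers mark shared processing was not tested.

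Where 2.35% of all genes rose and 1.79% fell, 10 of the 131 genes in the pathway lists rose and 5 fell. Rises numbered 2 with ordinary statistics, 2 without array 3 of each group, and 5 to 11 with 1 array left out. Falls numbered 2 without normalization, 2 with an offset of 1, 8 with an offset of 4, 8 with the intensity filter, 2 with the replicate block, 12 with array weights, 0 with ordinary statistics (15 at an unadjusted p under 0.05), 0 without array 3 of each group (18 unadjusted, limma) and 1 to 8 with 1 array left out.

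Over these alternatives, 2 member probe sets that did not pass changed sign. Zfp36l1 1422528_a_at was -0.38 without array 3 of each group and -0.015 with the Gapdh ratio as covariate, and ran from -0.058 (control array 3 left out) to 0.70 with 1 array left out, with -0.0034 without knockdown array 3. Ier3 ran from -0.67 to 0.17 with 1 array left out, the last without control array 2. The single differences between the arrays numbered 3 also had the opposite sign at Ier2 (-0.03), Btg2 1416250_at (0.32) and Egr3 1421486_at (0.007). The cause was not tested. Probe sets below an intensity of 16 carry little information on the scale used.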
